A study of Mus musculus with 4 samples.

Results

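The comparison described here was between the distal colon of a wild-type (WT) mouse given dextran sodium sulfate (DSS) and that of an untreated WT mouse. It used 2 of the 4 arrays of the study, and the log2 difference, DSS minus untreated, was taken for each of the 34945 probe sets assigned to 1 gene, of 45101 on the array. After dim probe sets were left out, 12189 genes of the 18193 with such a probe set could be compared. The study set WT mice beside mice deficient in Adamts12 (KO), a secreted metalloprotease of the ADAMTS family, each untreated or given 2% DSS in drinking water. The 2 KO arrays, of an untreated and a DSS-treated mouse, are used only for values side by side. Treatment began when the mice were 8 to 10 weeks old. The series text states 7 days of DSS and the treatment protocol 8 days, followed by 1 day without it. Each group was 1 mouse on 1 array, so that no difference has a replicate check, no test was possible, and the number of arrays limits the precision.

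DSS is a sulfated polymer that damages the surface epithelium of the colon and lets luminal bacteria reach the mucosa, and it is widely used as a model of colitis. After such injury neutrophils enter the tissue, stromal and epithelial cells make chemokines, growth factors and proteases, and crypt cells divide to cover the denuded surface. Mature colonocytes absorb salt and water, goblet cells secrete mucus and lectins, and both are replaced from the dividing cells of the crypt base.

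Markers of colon epithelium were bright on both WT arrays. Lypd8, a protein of the apical surface of distal colonocytes, had log2 values of 12.89 without and 12.75 with DSS. The colonocyte keratin gene Krt20 was at 10.52 and 10.51, the epithelial adhesion gene Epcam at 11.28 and 11.17, and Muc2, the main mucin of goblet cells, at 12.47 and 12.49. Adamts12 itself had 2.18 on both arrays with the brighter of its probe sets, which did not pass the filter on dim values. The other lay at 0.97 and 0.71. Values of 1.39 or less, the highest among 9 probe sets of Y-linked genes in these Xist-positive WT samples, counted as background, and differences that start or end there are given as bounds.

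Several genes of position along the gut and of neighbouring tissues also differed between the WT arrays, and these values stand beside the epithelial results. Among the Hoxd genes, which are used in turn towards the anal end of the gut, Hoxd13 was at 8.82 without and 4.22 with DSS, Hoxd10 at 5.82 and 2.37, and Hoxd11 at 4.56 and 2.68. Hoxd9 and Hoxd8 were closer together, at 4.73 and 4.30 and at 3.44 and 3.25, and Hoxd12 was not above background on either array. Hoxb13, another posterior gene, was lower by 1.63, from 9.47, while the posterior gene Hoxa13 was at 4.35 and 4.07. Hoxa9, Hoxa10, Hoxa11 and Hoxb9 were higher by 0.25, 0.54, 0.71 and 0.35. The intestinal homeobox gene Cdx2 was higher by 1.19, from 6.15. In all, 4 of 14 measured genes of the posterior and colon region list were at least 2-fold lower and 1 higher. Of the 14, 6 lay above 0 and 8 below. The list's median was -0.11, with a log2 summed level of 10.9 without and 10.2 with DSS. Of 15 markers of the small intestine and proximal colon, 4 were higher, namely Isx (3.40), Slc13a1 (2.30), Fabp2 (1.35) and Alpi (1.26), and 3 lower, namely Gsdmc2 (-2.29), Cyp2c55 (-1.56) and Hoxb6 (3.66 without and 2.66 with DSS). Their log2 summed level was 12.4 without and 11.1 with DSS. Among the WT arrays, 3 of the 15 were above the array median with DSS alone, 3 without DSS alone and 3 on neither. Another 4 members did not pass the filter. Of 9 measured genes that pancreas expresses strongly, Pnliprp2, Clps and Cela1 were lower, with differences of -4.79, -3.99 and -1.43, and the other 6 lay within 2-fold. Another 9 with a probe set did not pass the filter. The median was -0.21 over the measured genes and 0.01 over all 18, of which 4 were at least 2-fold lower and 0 higher. The part of place along the colon, or of neighbouring tissue, in the results was not tested, and it cannot be told apart from the treatment with 1 piece of colon per group.

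Over the 12189 genes, the 2 WT arrays correlated at r = 0.933, a value across genes, which are not independent replicates. The median difference was -0.01, and 67.4% of genes lay less than 0.5 apart on the log2 scale. At least 2-fold higher with DSS were 709 genes (5.82%), and at least 2-fold lower 605 (4.96%). Over all 34945 one-gene probe sets, with no filter, 1196 (3.42%) were higher and 1034 (2.96%) lower. At least 8-fold differences were seen for 12 genes higher and 18 lower. Of the 709 genes that were higher, 300 had another probe set past the filter, and in 285 of them (95%) every other probe set was also higher, though in only 151 (50.3%) each by 2-fold. For the 605 that were lower, 232 had another probe set, all of them lower in 220 (94.8%) and all by 2-fold in 100 (43.1%). The SD of the difference between probe sets of a gene was 0.310 (root mean square over 5418 genes), which is a technical spread within 1 pair of arrays and not a spread between mice.

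**Figure D1:**
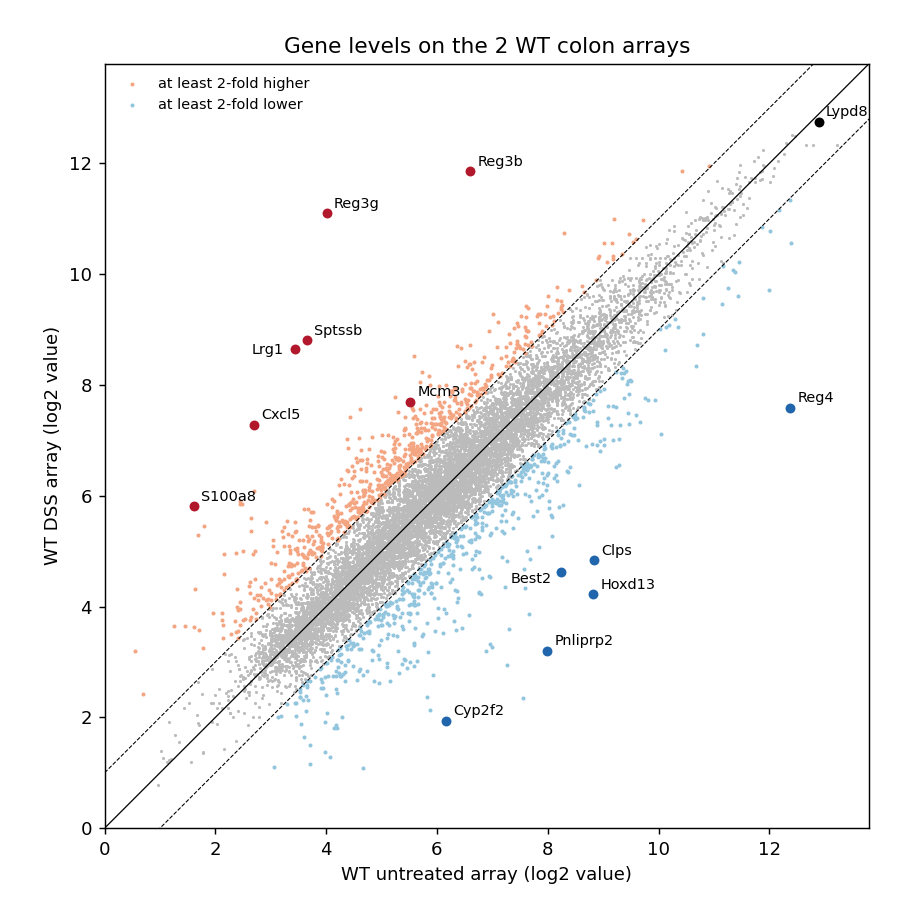
Log2 value of each of the 12189 genes on the untreated WT array (x axis) and the WT DSS array (y axis), 1 array each, with equality as a solid line and 2-fold as dashed lines. Most genes lie near the line, with Reg3g and Reg3b far above it, Reg4, Hoxd13 and Pnliprp2 far below it, and the colonocyte gene Lypd8 close to it.

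Spiked hybridization controls, added to every array in the same amount, gave a scale that differed from the deposited one. The 18 control probe sets were lower on the WT DSS array by a median of 0.32 (0.07 to 0.52). Centring the arrays on them would add 0.31 to every difference, giving 1326 genes higher and 303 lower, so that 81.4% of the 2-fold calls would be higher in place of 54.0%. On that scale the medians of several lists that are negative in the text would be positive. They would be 0.21 for the posterior genes, 0.10 for the measured pancreas genes, 0.01 for nutrient transporters and 0.29 for the respiratory chain. For interferon-stimulated genes the median would be 0.18, for fibroblast genes 0.28, for acute-phase and complement genes 0.13 and for Wnt and BMP genes 0.02. The 2-fold lower counts would be 6 goblet cell, 5 ion transport, 8 phase I, 4 phase II, 8 B cell and 3 clock genes. Differences in the text are on the deposited scale. There 14 housekeeping genes had a median of 0.18, with 12 above 0, 2 below and none 2-fold apart. The highest of them was 0.86. Of their 36 probe sets 27 were above 0 and 9 below, and 1 was at least 2-fold higher. RNA quality was alike, with the 3-prime minus 5-prime difference of Actb at 0.64 without and 0.73 with DSS, and that of Gapdh at 0.21 and 0.20.

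Genes of DNA replication were higher with DSS. Of 21 measured genes that license origins and form the replicative helicase, 18 were at least 2-fold higher with DSS and none lower, beside 5.82% of all genes. The median was 1.46, against -0.01 for all genes, and all 38 probe sets of these genes were above 0. Mcm3, a subunit of the helicase, was at 5.52 without and 7.70 with DSS. Cdc6, which loads the helicase, was at 3.67 and 5.76, the initiation factor Mcm10 at 4.47 and 6.54, and Cdc7, the kinase that fires origins, at 4.40 and 6.44. These 4 were thus higher by 2.04 to 2.18. The lowest difference in the list was that of Orc1, at 0.34. Every one of the 21 genes was above the array median on both WT arrays, so that none passed the filter only where it was high.

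Genes of DNA synthesis and nucleotide supply differed in the same way, with 19 of 24 higher, none lower and a median of 1.33. Uhrf1, which recruits the maintenance DNA methyltransferase to new DNA, was at 5.24 without and 7.78 with DSS, a difference of 2.54. Rrm2, the cell-cycle subunit of ribonucleotide reductase, was at 5.86 and 8.17, the chromatin assembly gene Chaf1b at 3.77 and 5.70, and Rpa2, a single-strand binding protein, at 4.50 and 6.36. All 42 probe sets of this list were above 0, and 30 of them were at least 2-fold higher.

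Promoters of these genes are shown because the members moved together and because many hold the same short motif. The motif searched for the E2F factors, which drive genes of S phase, was TTTCCCGC, TTTGCCGC, TTTGGCGC or TTTCGCGC on either strand, where matches may overlap. In RefSeq windows from 250 bases before to 50 after the start, 8 of 17 windows of 15 licensing genes held it (47.1%), as did 7 of 28 of the synthesis genes (25%), against 744 of 32851 windows of all genes (2.26%) and 481 of 12577 of the genes compared (3.82%). The following are the 250 bases before the start of the 3 licensing genes with the largest WT differences whose single RefSeq window held a match there, 5′ to 3′ along the gene, in build GRCm38.p6, with matches in capitals. They are Cdc6 at chr11:98907901-98908150 on the plus strand, Mcm5 at chr8:75109259-75109508 on the plus strand and Mcm6 at chr1:128359706-128359955 on the minus strand.
Cdc6: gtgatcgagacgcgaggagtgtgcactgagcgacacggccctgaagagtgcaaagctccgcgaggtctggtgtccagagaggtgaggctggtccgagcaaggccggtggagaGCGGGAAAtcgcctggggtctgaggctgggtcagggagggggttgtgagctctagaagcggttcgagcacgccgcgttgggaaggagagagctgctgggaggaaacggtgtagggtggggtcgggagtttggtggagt
Mcm5: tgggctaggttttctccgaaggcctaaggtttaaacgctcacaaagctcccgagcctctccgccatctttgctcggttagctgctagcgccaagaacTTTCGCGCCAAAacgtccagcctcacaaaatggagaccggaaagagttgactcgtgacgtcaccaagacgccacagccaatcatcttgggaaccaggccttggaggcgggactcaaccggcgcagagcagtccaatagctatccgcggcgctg
Mcm6: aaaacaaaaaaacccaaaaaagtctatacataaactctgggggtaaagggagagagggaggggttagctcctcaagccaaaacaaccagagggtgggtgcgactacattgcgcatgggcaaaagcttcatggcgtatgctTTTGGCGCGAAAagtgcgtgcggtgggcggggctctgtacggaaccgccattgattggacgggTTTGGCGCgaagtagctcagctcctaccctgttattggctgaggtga
The Cdc6 stretch held 1 match. In Mcm5 a pair of overlapping matches stood together, and Mcm6 held 3, of which the first and second overlapped. Mcm5 was at 6.59 without and 8.38 with DSS, and Mcm6 at 6.85 and 8.51. A match of letters is no evidence of binding, which was not measured here.

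Mitotic genes were higher as well. Of 34 genes of mitosis and cytokinesis, 28 were at least 2-fold higher and none lower, with a median of 1.36 and a range from 0.56 (Nusap1, a spindle protein) to 1.98. Aurka, a kinase of the spindle poles, was at 5.56 without and 7.54 with DSS. Birc5, a subunit of the chromosomal passenger complex, was at 6.51 and 8.44, its partner Cdca8 at 6.04 and 7.70, and the mitotic kinase gene Plk1 at 5.57 and 7.41. All 57 probe sets of the list were above 0. Mki67, the usual marker of dividing cells, was at 8.04 and 9.23.

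The mitotic promoters held another pair of motifs, the CHR element (TTTGAA) and the CCAAT box (CCAAT), both searched on either strand. Of 31 windows of 29 mitotic genes, 25 held the CHR letters (80.6%), 25 the CCAAT letters (80.6%) and 23 both (74.2%). Among all 32851 windows the shares were 17.9%, 37.4% and 6.95%, and among the 12577 windows of the genes compared CHR was in 12.2% and CCAAT in 36.8%, so that CCAAT alone is common. The E2F motif was in 2 of the 31 (6.45%). The next 3 stretches, with both motifs in capitals, belong to the mitotic genes with the largest differences whose single RefSeq window held both before the start. They are Ube2c at chr2:164769679-164769928 on the plus strand, Cdk1 at chr10:69352913-69353162 on the minus strand and Top2a at chr11:99024190-99024439 on the minus strand.
Ube2c: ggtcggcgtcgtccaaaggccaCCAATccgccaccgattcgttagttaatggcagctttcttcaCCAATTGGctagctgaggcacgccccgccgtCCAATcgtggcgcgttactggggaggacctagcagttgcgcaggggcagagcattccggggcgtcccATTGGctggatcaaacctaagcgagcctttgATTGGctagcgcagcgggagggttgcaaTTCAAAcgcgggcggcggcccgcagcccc
Cdk1: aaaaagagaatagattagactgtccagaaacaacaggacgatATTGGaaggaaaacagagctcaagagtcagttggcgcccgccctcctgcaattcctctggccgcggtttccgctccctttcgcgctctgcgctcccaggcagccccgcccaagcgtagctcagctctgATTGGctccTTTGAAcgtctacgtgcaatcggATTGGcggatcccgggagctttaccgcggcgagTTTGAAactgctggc
Top2a: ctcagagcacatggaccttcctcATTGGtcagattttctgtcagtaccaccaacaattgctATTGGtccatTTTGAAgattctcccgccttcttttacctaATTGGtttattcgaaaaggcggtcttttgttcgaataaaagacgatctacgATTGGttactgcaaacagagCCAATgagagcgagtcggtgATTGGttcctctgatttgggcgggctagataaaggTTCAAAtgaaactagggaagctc
Ube2c, the ubiquitin-conjugating enzyme of the anaphase-promoting complex, was at 7.39 without and 9.02 with DSS. Cdk1, the mitotic kinase, was at 6.31 and 7.92, and Top2a, which untangles chromosomes, at 7.09 and 8.69. Both motifs were present in 3 of 17 windows of licensing genes (17.6%), 1 of 28 of synthesis genes (3.57%) and 0 of 27 of ribosome biogenesis genes. The CHR letters were in 35.3% of the licensing windows and the CCAAT letters in 64.7%. In lists with negative medians the CCAAT letters were as frequent as in mitotic windows, in 83.3% for cholesterol synthesis and 75% for clock genes.

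Ribosome biogenesis genes were higher too, with 24 of 30 at least 2-fold higher, none lower and a median of 1.19. Rrp12, a factor of ribosomal subunit export, was at 3.45 without and 5.36 with DSS. Dkc1, the pseudouridine synthase of ribosomal RNA, was at 6.01 and 7.80, its partner Nhp2 at 7.51 and 9.24, and the nucleolar gene Nolc1 at 5.43 and 7.21. Of their 54 probe sets 53 were above 0. The E-box (CACGTG), the site of Myc and of clock factors, was in 6 of 27 of their windows (22.2%), against 7.15% of all windows and 9.63% of those of the genes compared. It was as frequent for lists with negative medians, in 4 of 18 windows of cholesterol synthesis genes (22.2%) and 5 of 20 of clock genes (25%).

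The regulators of division were less uniform. Of 18 measured, 4 were at least 2-fold higher, namely Ccnd1 (6.94 without, 8.97 with DSS), Ccne1 (4.61 and 6.26), E2f1 (3.49 and 4.95) and E2f2 (higher by 1.37), which are cyclins and activators of the G1 to S step. The inhibitors Cdkn2b (6.37 and 5.10) and Cdkn1c (5.75 and 4.59) were lower. Myc was at 6.09 and 6.81, under 2-fold. Among crypt stem cell genes 1 of 22 was 2-fold higher, Cdca7, by 1.17, and none lower. Their median was 0.05, and Lgr5, the marker of the cycling stem cell, was at 4.43 and 3.49. In bulk tissue, more or fewer cells of a type and more or less RNA per cell cannot be told apart.

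Chaperones of the cytosol and mitochondria were higher. In the heat shock list 7 of 19 were at least 2-fold higher and none lower, with a median of 0.70. Hsph1 was at 7.02 without and 9.29 with DSS, the mitochondrial chaperonin Hspe1 at 8.93 and 10.33 with its partner Hspd1 higher by 1.80, and the chaperonin subunit Cct8 at 7.97 and 9.07. None of 20 genes of the unfolded protein response was 2-fold apart either way, and their median was 0.01. Their lowest and highest differences were -0.87 (Herpud1) and 0.94 (Manf). Of 18 genes of amino acid synthesis and ATF4 targets 7 were higher, led by the serine synthesis gene Psat1 (4.53 and 6.68), the transporter gene Slc7a5 (4.95 and 6.54), Shmt2 (5.66 and 7.17) and Psph (4.43 and 5.58), and 1, Chac1, was lower (5.54 and 4.50).

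**Figure D2:**
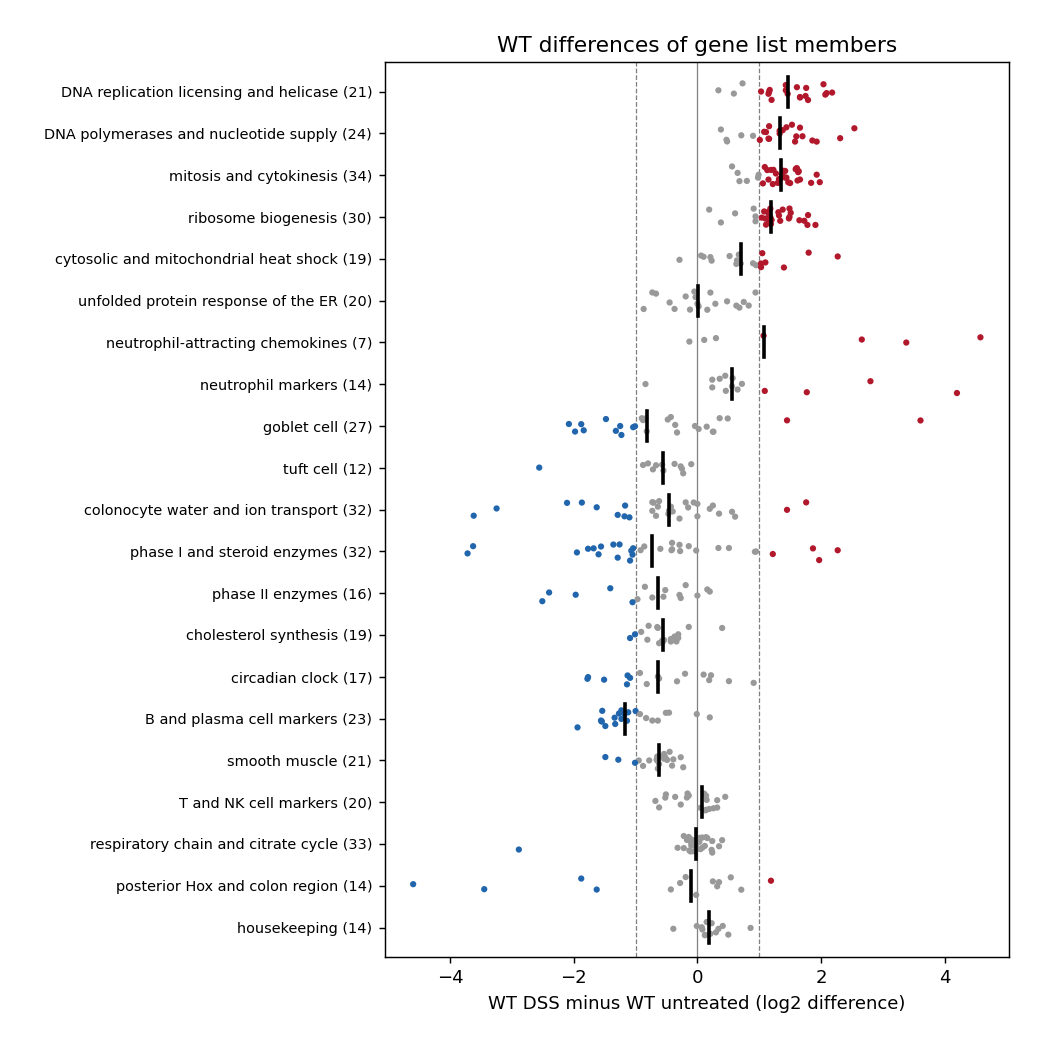
Log2 difference, WT DSS minus WT untreated, of each measured member (points, number in brackets) of 21 gene lists, with the list median as a bar, 0 as a solid line and 2-fold as dashed lines. Red members are at least 2-fold higher and blue at least 2-fold lower. All members of the replication, mitosis and ribosome biogenesis lists lie above 0, and all smooth muscle and tuft cell members below it.

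The largest single differences were those of lectins, acute-phase, chemokine and epithelial genes. Reg3g and Reg3b, bactericidal lectins of the gut epithelium, were at 4.01 and 6.60 without DSS and at 11.10 and 11.86 with it. These were differences of 7.09 and 5.26, or 136-fold and 38.3-fold, and the other Reg3b probe set gave 3.83. Reg4, a lectin of the same family, went the other way, from 12.38 to 7.59. Reg3a was at 1.53 and 2.25. The 3 other Reg lectins with a probe set did not pass the filter.

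Among the other 15 highest genes were several of leukocyte recruitment and repair. The secreted glycoprotein gene Lrg1 was at 3.43 without and 8.65 with DSS. The neutrophil chemokine genes Cxcl5 and Cxcl2 were at 2.70 and 7.28 and at 2.48 and 5.86, S100a8 of the calprotectin complex at 1.61 and 5.81, and the stromelysin gene Mmp3 at 1.80 and 5.46. Ereg and Epgn, ligands of the EGF receptor, were at 4.61 and 7.57 and at 2.44 and 5.85. All of these were below the array median or near it without DSS, apart from Ereg.

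The rest of the 15 were epithelial or of other roles. Sptssb, a small subunit of serine palmitoyltransferase, which starts sphingolipid synthesis, was at 3.65 without and 8.81 with DSS, and its other probe set gave a difference of 4.18. The amino acid transporter gene Slc3a1 was at 2.44 and 5.91, the intestinal homeobox gene Isx at 2.69 and 6.09, and the glycerolipid enzyme gene Gpat3 at 2.65 and 5.59. Probe sets disagreed for the remaining pair. St6galnac1, a sialyltransferase of mucins, differed by 3.61 on one probe set and 0.27 on the other, and Rpgrip1, a protein of the photoreceptor cilium, by 2.99 on one and by -0.45 to 0.18 on 3 dim ones.

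The lowest difference of all was that of the gene model 2310079G19Rik, at 7.55 without and 2.34 with DSS, which was left out of the 15 because only genes with a name of their own were ranked. The 15 lowest of these were mostly epithelial enzymes, channels and secreted proteins. Best2, an anion channel of colonic goblet cells, was at 8.24 without and 4.62 with DSS, the deiodinase gene Dio1 at 6.99 and 3.27, the lectin gene Itln1 at 7.30 and 3.59, and the sugar phosphate exchanger gene Slc37a2 at 7.66 and 3.86. The cytochrome P450 genes Cyp2f2, Cyp2d12 and Cyp2c68 were lower with differences of -4.22, -3.75 and -3.63, as was the fucosyltransferase gene Fut9 at -3.69 (-3.59 and -1.75 on its other probe sets). Spink5, a protease inhibitor, was at 4.66 and not above background with DSS, lower by at least 3.27. The remaining members were Reg4, Hoxd13, Hoxd10, Pnliprp2 (-4.61 on its other probe set), Clps (-4.24) and Xaf1. Xaf1, an interferon-inducible gene, differed by -4.32 on one probe set and 0.92 on the other, so that its direction is uncertain.

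**Figure D3:**
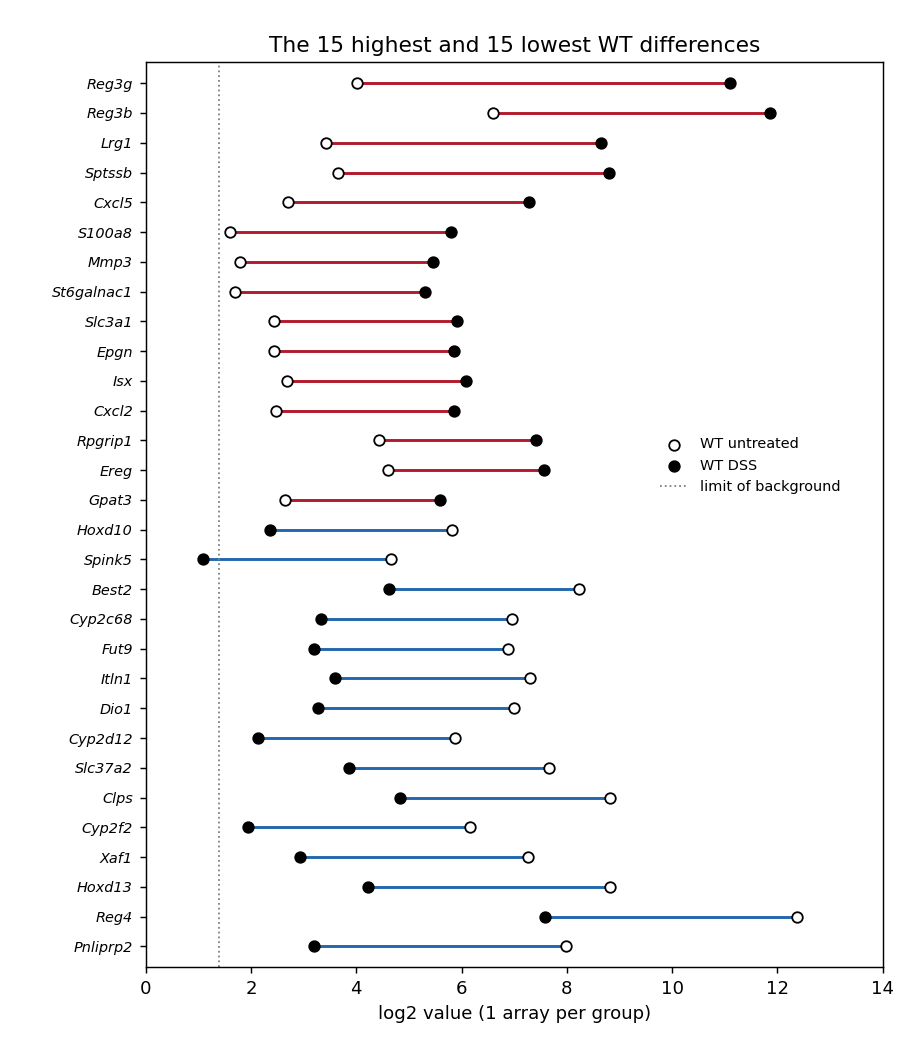
Log2 values on the untreated (open) and DSS (filled) WT array of the 15 highest and 15 lowest differences among genes with a name of their own, which leaves out 2310079G19Rik, with the background limit of 1.39 dotted. The longest line, of Reg3g, runs from 4.01 to 11.10, and Spink5 alone ends below the limit.

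Genes that attract neutrophils were higher, with 4 of 7 measured past 2-fold and none lower. They were Cxcl5, Cxcl2, Cxcl3 (not above background without DSS and 3.20 with it, at least 1.81 higher) and Cxcl1 (5.06 and 6.13). Only 3 of the 7 were above the array median on both WT arrays, and 5 other members did not pass the filter. The median was 1.07 over the 7 and 0.24 over all 12 with a probe set. Neutrophil markers were dim. Of 14 measured, 4 were higher, namely S100a8, S100a9 (2.15 and 4.95), Hp (2.60 and 4.37) and Ltf (3.27 and 4.36), and none lower. Just 2 of the 14 were above the median on both WT arrays, 7 on the WT DSS array alone and 5 on neither. Another 5 members did not pass the filter. The median was 0.56 over the 14 and 0.45 over all 19 with a probe set. The log2 summed level of the list was 9.83 without and 9.40 with DSS. It was dominated by Cd177 at 9.69 and 8.85, a gene that colon epithelium also expresses.

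Cytokine genes were higher in part. Socs3, the feedback inhibitor induced by STAT3, was at 5.73 without and 8.24 with DSS, and its other probe sets gave 2.34 and 1.79. Of 24 genes of the interleukin-1, interleukin-6 and tumour necrosis factor families 5 were higher and none lower, the others being Il1b (4.44 and 6.07), Tnfrsf1b (5.63 and 7.23), Il33 (3.93 and 5.07) and Lif (3.16 and 4.21). The median was 0.35 over the 24 and 0.34 over all 29 with a probe set. Among the WT arrays, 3 of the 24 were above the median on the DSS array alone, Lif among them, and 2 on neither. Another 5 members did not pass the filter. At 1.19 and 1.24, Il6 stayed under the background limit. Other chemokines were not higher as a list, with 1 of 22 higher, Cxcl11 (3.31 and 4.73), and 4 lower, Ccl28 (8.88 and 7.28), Ccl6 (10.12 and 8.63), Ccl20 (5.86 and 4.58) and Cxcl12 (7.13 and 6.13).

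Acute-phase genes were divided. Of 20 acute-phase and complement genes measured, 4 were at least 2-fold higher and 2 lower, beside 5.82% and 4.96% of all genes. The median was -0.18, with 14 of the 20 below 0. Another 5 members did not pass the filter. Saa3, a serum amyloid made in inflamed tissue, was at 4.63 without and 6.83 with DSS, and Lbp, which binds lipopolysaccharide, at 5.57 and 6.96. Yet Saa1 and Saa2, which colonocytes make, were lower, from 11.34 to 10.08 and from 6.85 to 5.71. Of 9 genes of oxidant production measured, 2 were higher and none lower, with a median of 0.08 and 4 below 0. Nos2, the inducible nitric oxide synthase, was at 3.33 and 5.10, and Duoxa2, the maturation factor of an epithelial oxidase, at 4.21 and 5.24. Among the WT arrays, Nos2 was above the array median on the DSS array alone. Of 16 epithelial antimicrobial genes 4 were higher, Pla2g2a (5.59 and 8.52), Slpi (7.25 and 8.68), Ltf and Dmbt1 (10.91 and 11.96), and 4 lower, Itln1, Wfdc2 (8.80 and 6.94), Mptx1 (12.39 and 10.57) and Pigr (11.87 and 10.85).

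Proteases and growth factors of repair were higher in part. Of 18 proteases and inhibitors 6 were higher, led by Mmp3, Mmp10 (3.11 without, 4.99 with DSS), the inhibitor gene Timp1 (3.51 and 5.21) and the urokinase receptor gene Plaur (4.79 and 6.21), and 1, Prss23, lower (6.44 and 5.10). Of the 18, 5 passed the filter among the WT arrays on the DSS array alone, and 6 other members did not pass it. The median was 0.53 over the 18 and 0.21 over all 24 with a probe set, 17 of the 34 probe sets lay above 0 and 17 below, and the log2 summed level was 11.6 without and 11.4 with DSS. Among 7 measured ADAMTS genes Adamts4 was at 1.96 and 3.89 and Adamts15 at 5.86 and 4.35, and the rest lay within 2-fold. Of 24 genes seen in regenerating fetal-like epithelium 8 were higher, led by Ereg, Sprr1a (higher by 2.09), Anxa8 (6.16 and 8.00) and Plaur, and 2 lower, Gsn (10.35 and 9.04) and Msln (3.13 and 2.00). Among 12 EGF receptor ligands and receptors Epgn, Ereg and Hbegf (5.90 and 7.31) were higher and none lower, with a median of 0.17. Of the 12, 2 passed the filter among the WT arrays on the DSS array alone, Epgn among them, and 3 other members did not pass it. Of 18 prostaglandin genes 1, Ptgs2, was higher (4.42 and 5.46), while Hpgd, which degrades prostaglandins (9.17 and 7.01), Pla2g4c (8.37 and 6.43) and the uptake transporter gene Slco2a1 (7.67 and 6.52) were lower.

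Goblet cell genes were lower unevenly, with 10 of 27 at least 2-fold lower, beside 4.96% of all genes, 2 higher and a median of -0.82. Rep15, a vesicle protein, was at 9.81 without and 7.73 with DSS, Bcas1 at 9.75 and 7.77, and the protease gene Capn9 at 8.40 and 6.52. The 2 higher were St6galnac1, on the probe set that disagreed with its other, and the fucosyltransferase gene Fut2 (7.59 and 9.04). The mucin Muc2, given above, differed by only 0.02. The measured tuft cell genes were all lower to some extent, 12 of 12 below 0 with a median of -0.56, but only Rgs13 (5.45 and 2.89) by 2-fold. Among the WT arrays, 3 of the 12 were above the median on the untreated array alone. Another 4 members did not pass the filter, and the median over all 16 with a probe set was -0.46. When the arrays were centred on the hybridization controls, 8 of the 12 remained below 0. Of 16 enteroendocrine genes none was 2-fold lower and 2 were higher, Gcg (6.09 and 7.61), the proglucagon gene of L cells, and Tph1 (2.94 and 4.14). Beside these, Hoxd13 and Hoxb13 were lower, as given above, while 6 of the 14 genes of the posterior and colon region list lay above 0. The part of position was not tested.

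Of 32 genes of salt and water transport 9 were at least 2-fold lower and 2 higher. The 3 subunit genes of the epithelial sodium channel, which absorbs sodium in the distal colon, were lower, Scnn1a from 7.63 to 6.46, Scnn1b from 4.59 to 3.49 and Scnn1g from 5.09 to 2.98. So were Sgk1, the kinase that keeps the channel at the surface (9.15 and 7.28), the mineralocorticoid receptor gene Nr3c2 (7.07 and 5.89), Hsd11b2, which protects that receptor from glucocorticoids (9.23 and 7.60), and Fxyd4, a regulator of the sodium pump (7.58 and 4.33). With Best2 and the potassium channel gene Kcnq1 (7.34 and 6.05) these were the 9 that were lower. The 2 higher were Slc9a3, the sodium-proton exchanger of the brush border (7.98 and 9.43), and Tmigd1 (5.63 and 7.39). The list median was -0.47. Slc26a3, the chloride-bicarbonate exchanger, was at 10.55 and 9.84. Hoxd13, Hoxd10 and Hoxb13, which are graded along the colon, were lower in the same array. Other posterior genes, such as Hoxa9, Hoxa10 and Hoxa11, were not, and 6 of the 14 in that list lay above 0. What part position had in these values was not tested.

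Nutrient transporters differed in both directions, with 5 of 25 higher and 6 lower, beside 5.82% and 4.96% of all genes. Those higher were Slc3a1 and its partner Slc7a9 (2.71 without, 4.50 with DSS), the sulfate transporter gene Slc13a1 (2.71 and 5.01), the fatty acid binding protein gene Fabp2 (6.72 and 8.07) and Slc51b (6.08 and 7.28). Lower by the most were Slc37a2 and the phosphate transporter gene Slc34a2 (5.74 and 3.50). Among the WT arrays, Slc3a1, Slc7a9 and Slc13a1, 3 of the 25, were above the median on the DSS array alone. Of the rest, 1 was above it on the untreated array alone and 2 on neither. Another 5 members did not pass the filter. Tight junction genes lay within 2-fold, all 18 of them, from -0.76 (Cldn8) to 0.61 (Cldn4).

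Enzymes of drug and steroid metabolism were mostly lower. In the phase I list of 32, the median was -0.73, and 14 lay 2-fold or more below the untreated value and 4 above it. Among the WT arrays, 5 of the 32 were above the median on the untreated array alone, and with no filter, or with a filter on the WT mean, the median was -0.42. Dio1 and Cyp2c68 had the lowest differences, as given above. The 4 higher were the carboxylesterase genes Ces1f (2.68 without, 4.95 with DSS) and Ces1g (1.70 and 3.57), Akr1b8 (6.38 and 8.35) and Aadac (5.71 and 6.93). Among 16 conjugating enzymes of phase II 5 were lower and none higher. They were the sulfotransferase genes Sult1c2 (6.76 and 4.25), Sult1a1 (8.06 and 5.66), Sult1d1 (8.95 and 6.98) and Sult1b1 (8.65 and 7.60) and the glucuronosyltransferase gene Ugt2b35 (6.61 and 5.20). The glutathione list was split, with Gpx2 (10.43 and 11.87), Nqo1 (3.90 and 5.20), Txnrd1 (8.23 and 9.40), Gsr (7.38 and 8.45) and Gsta3 (3.16 and 4.23) higher and Gstm1 (8.18 and 7.17) lower.

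Cholesterol synthesis genes were lower by small amounts. Of 19 measured 18 were below 0, but only Hmgcs1, which makes the precursor of mevalonate (10.13 and 9.04), and the sterol sensor Insig1 (6.17 and 5.16) by 2-fold, with a median of -0.56. Of their 37 probe sets 34 were below 0. With the arrays centred on the hybridization controls the median was -0.25 and 15 of the 19 were below 0. Respiratory chain and citrate cycle genes had a median of -0.02, and apart from Pck1, the gluconeogenic enzyme (7.57 and 4.68), all 33 lay between -0.32 (Cs) and 0.40 (Ndufa5). In the fatty acid oxidation list 1 of 26 was at least 2-fold lower, the coactivator gene Ppargc1a (5.96 and 3.55), and none higher. Of the 42 probe sets of this list 29 were below 0, 6 by at least 2-fold, and 11 above it, 0 by 2-fold.

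B cell genes were lower than in the untreated colon. Of 23 B and plasma cell markers 15 were at least 2-fold lower, beside 4.96% of all genes, and none higher, with a median of -1.18. Of their 39 probe sets 31 were below 0, 20 by at least 2-fold, and 8 above it, 4 by at least 2-fold. Among the WT arrays, 5 of the 23 genes were above the median on the untreated array alone. The median over all 24 with a probe set was -1.16. The log2 summed level was 13.5 without and 12.9 with DSS. Ms4a1, the surface antigen CD20, was at 6.66 and 4.72, the B cell receptor gene Cd79b at 5.91 and 4.35, the coactivator gene Pou2af1 at 6.52 and 4.97, and Spib at 5.58 and 4.03. Probe sets for Ighm, the mu heavy chain, went both ways, with the brightest at 9.20 and 8.69 and another at 5.44 and 7.65. T and NK cell markers lay within 2-fold, all 20, with a median of 0.08 and a log2 summed level of 8.66 and 8.61. Macrophage markers had 1 of 22 higher, Chil3 (2.13 and 3.43), and none lower. Of 8 mast cell and granulocyte markers the mucosal mast cell protease genes Mcpt1 (4.14 and 5.91) and Mcpt2 (4.53 and 5.89) were higher and Kit (6.51 and 5.43) lower. Of 15 genes of MHC class II presentation H2-Ob (5.43 and 3.04) and H2-Oa (4.73 and 3.66), chains of a modulator of antigen loading that is prominent in B cells, were lower and none was higher.

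In the muscle, all 21 smooth muscle genes were below 0, with a median of -0.62, and 3 were 2-fold lower, Synm (7.90 and 6.41), Cav1 (8.81 and 7.53) and Synpo2 (7.54 and 6.53). The log2 summed level was 13.9 and 13.3. After centring on the hybridization controls 19 of the 21 were below 0. Fibroblast and matrix genes had a median of -0.03, with Grem1, an antagonist of BMP signals (5.40 and 7.19), and Col18a1 (5.53 and 6.87) higher and Ogn (7.80 and 5.73) and Col14a1 (4.59 and 3.24) lower. Of 22 Wnt and BMP genes measured 2 were higher, Grem1 and Frzb (2.69 and 4.16). The 4 lower were Hhip (5.10 and 2.91), Id2 (7.36 and 5.67), Bmp2 (8.12 and 6.54) and Chrdl1 (4.21 and 3.21). Among the WT arrays, 1 of the 22 was above the median on the DSS array alone and 3 on the untreated array alone. Another 12 members did not pass the filter. The median was -0.29 over the 22 and -0.01 over all 34 with a probe set. Of 12 adipocyte markers Adipoq (2.50 and 5.01), Car3 (4.93 and 6.63) and Lpl (4.27 and 5.68) were higher and Pck1 lower. Their log2 summed level was 9.35 and 9.49. The part of these cell types in the epithelial differences was not tested.

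Of 17 clock genes 6 were at least 2-fold lower and none higher, with a median of -0.64 and 5 above 0. Dbp, an output transcription factor, was at 7.98 without and 6.20 with DSS, Per2 at 6.27 and 4.50, Per3 at 5.22 and 3.71, and Hlf at 4.48 and 3.34, where Per2 and Per3 are repressors of the core loop. The core activators Arntl and Clock were at 5.73 and 5.92 and at 7.10 and 7.20. The hour of dissection is not known from the labels. The interferon-stimulated list had a median of -0.13 over 31 genes, 2 higher, Ifit2 (6.45 and 7.90) and Bst2 (6.13 and 7.43), and 1 lower, Xaf1.

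In the KO pair, 1312 genes (10.8%) were at least 2-fold higher with DSS and 814 (6.68%) lower. The dividing-cell lists had medians there of 1.18 for replication licensing, 0.92 for DNA synthesis, 1.29 for mitosis and 1.14 for ribosome biogenesis. Of the 15 genes highest in WT, 7 were at least 2-fold higher in KO as well, among them Lrg1, by 5.22 in WT and 5.18 in KO, Ereg (2.96 and 4.92) and Epgn (3.41 and 2.24). Of the 15 lowest in WT 4 were 2-fold lower in KO, Dio1 (-3.72 and -3.70), Xaf1, Clps and Itln1. B and plasma cell markers had a median of -1.18 in WT and 1.57 in KO, and nutrient transporters and phase I enzymes of -0.30 and -0.73 in WT and -1.60 and -2.17 in KO. The difference between the genotypes was not tested for any of these.

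**Figure D4:**
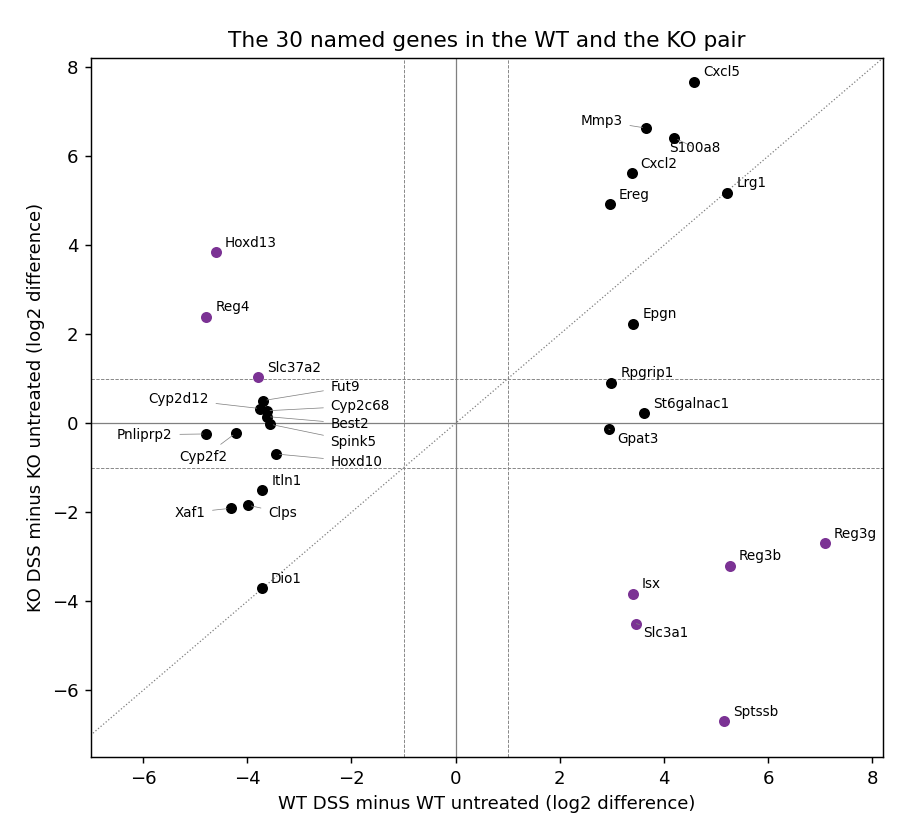
Measured log2 differences, DSS minus untreated, of the 30 named genes in the WT pair (x axis) and the KO pair (y axis), with 2-fold dashed and equality dotted. Lrg1 and Dio1 lie on the line of equality, and the 8 purple genes, Reg3g, Reg3b, Sptssb, Slc3a1, Isx, Reg4, Hoxd13 and Slc37a2, are at least 2-fold apart in opposite directions.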

How the data were processed

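Trizol RNA of distal colon was labelled as biotinylated cRNA for Affymetrix expression arrays, per the labels' protocols. The authors deposited 1 table of values for 45101 probe sets on 4 arrays. The deposited values were taken as log2: read as natural logs, the brightest would be 556821, beyond the 65535 of a 16-bit scanner. Summarization and normalization are not given in the sources used here. Column medians ran from 3.42 to 3.46, and nothing was rescaled. That there are so few arrays limits the precision.

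Probe sets were named from the platform's annotation, with symbols updated through RefSeq (GRCm38.p6): 34945 had 1 gene (34741 matched by gene number), 932 several, 9160 none, and 64 were controls. Probe sets that reached the median of an array in 1 or more of the 4 were kept, and each gene was read from the brightest of those by 4-array mean. A difference of 1 on the log2 scale is 2-fold. Of the 12189 genes, 327 were above the median of the WT DSS array alone among the WT arrays, 338 of the untreated alone, and 467 of neither. The background limit of 1.39 was set after the values were seen. No test was run.

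The 59 gene lists and the rules were chosen with earlier results of these data known. Named genes were the 15 highest and 15 lowest WT differences among genes with a name of their own and a brighter WT value above background. In each list described, up to 4 members with the largest differences were named, or all past 2-fold where a direction had 5 or fewer. Other members that were named, such as Scnn1a, Scnn1b, Muc2, Myc, Lgr5 and Il6, were picked with their values in view. Alternatives tried were normalizing by quantiles, centring on medians, no filter, a 75th percentile filter, a filter on the WT mean, the mean over probe sets, dropping multi-transcript probe sets and, added after seeing the data, centring on the hybridization controls. The code was tested on simulated data. Python 3.11.15, numpy 2.4.6, pandas 2.3.3 and matplotlib 3.10.9 were used.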

Additional observations from a re-analysis of the deposited data

Results flagged for a closer look

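The following genes were at least 2-fold apart in opposite directions in the WT and the KO pair, DSS minus untreated on the log2 scale, with 1 array per group. The difference between the pairs was not tested for any of them. Higher in WT and lower in KO were Reg3g (7.09 in WT and -2.70 in KO), Reg3b (5.26 and -3.20), Sptssb (5.16 and -6.69), Slc3a1 (3.47 and -4.50) and Isx (3.40 and -3.83). Lower in WT and higher in KO were Reg4 (-4.79 and 2.39), Hoxd13 (-4.60 and 3.84) and Slc37a2 (-3.80 and 1.03). On the untreated KO array Reg3g was at 9.37, Sptssb at 9.78 and Isx at 8.35, above their values on the untreated WT array, and Reg4 was at 5.98 and Hoxd13 at 3.36, below theirs.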

How the results depend on the processing

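No named gene's WT difference changed sign under the alternatives run. These genes were picked for the largest differences, so that this outcome was nearly fixed in advance and does not show that their directions are certain. That of Xaf1 stays uncertain, since its other probe set went the other way. List medians near 0 did change sign, as for NRF2, enteric neuron, posterior Hox and tight junction genes. Of the counts of genes, 14 of 16 stayed within 1.5 times the main value. The exceptions came with centring on the 18 hybridization controls, chosen after seeing the data, which gave 1326 genes higher and 303 lower by construction, since it adds 0.31 to every difference. Every list median and every named difference moved by that same amount, about the size of the spread between probe sets (0.310), giving medians such as 1.67 for mitosis, 0.47 for enteroendocrine, 0.88 for neutrophil markers, 0.07 for tight junction and 0.19 for prostaglandin genes. The other alternatives gave 555 to 714 genes higher and 451 to 635 lower. Without the filter the medians were 0.19 for Reg lectins, 0.24 for neutrophil-attracting chemokines and 0.21 for proteases, where members below the filter were added. With the 75th percentile filter, which left fewer genes, they were 5.26 for Reg lectins, 0.82 for ADAMTS genes, 1.11 for neutrophil markers, 1.36 for mast cell and granulocyte markers, -0.62 for enteric neuron genes, 0.29 for the posterior Hox list, -1.43 for pancreas and -1.29 for skeletal muscle genes. A filter on the WT mean gave 5.26 for Reg lectins and 1.09 for neutrophil markers. The mean over probe sets gave 2.63 for Reg lectins and 1.92 for neutrophil-attracting chemokines. Dropping multi-transcript probe sets gave 1.03 for amino acid genes, -0.06 for NRF2 and glutathione genes, 2.27 for Reg lectins, 2.61 for neutrophil-attracting chemokines, 0.90 for mast cell and granulocyte markers and -1.01 for pancreas. The cause was not tested unless given. Under the alternatives other than that centring, 6 of the named genes' values moved by more than that spread, among them Xaf1 at -1.70 and St6galnac1 at 1.94 as means over probe sets. No paired analysis was possible because each group has 1 array.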

Other observations

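Probe sets that the annotation assigned to no gene were counted as well. In WT, 68 of the 2888 that passed the filter (2.35%) were 2-fold or more above their untreated value after DSS, beside 5.82% of all genes. Another 138 (4.78%) were 2-fold or more below it, beside 4.96% of all genes. The lowest difference among these probe sets was from 7.09 without to 2.60 with DSS. The probe set with the highest difference was not above background without DSS and at 4.52 with it. Both are unnamed here.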
